A study of Mus musculus with 18 samples.

Results

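The genes described here are 50 genes of DNA replication and S phase, chosen by symbol for their known roles, and all 50 were among the 51912 genes counted and among the 24495 genes tested. They were measured by RNA-Seq in primary cortical astrocyte cultures from PD0 mice hemizygous for the transgene Tg(Aldh1l1-EGFP/Rpl10a) of the JD130Htz line. The mice came from crosses of hemizygous B6;FVB carriers of this line to C57BL/6J. In the transgene, the promoter of the astrocyte gene Aldh1l1 drives an EGFP-tagged ribosomal protein. All cultures, controls included, carried the transgene, were grown from pooled male and female cortices, and were held in serum-free medium for 24 h before and for 24 h during treatment. Of 12 dishes, 6 received 50 mM ethanol and 6 received control medium. Ribosome-bound RNA was pulled down from the tagged ribosomes of all 12 dishes by translating ribosome affinity purification (IP), and the total RNA of the lysate (input) was sequenced for replicates 4 to 6 of each treatment. This gave 6 IP control, 6 IP ethanol, 3 input control and 3 input ethanol libraries. Replicates are separate dishes, which the labels do not tie to separate animals or cultures. The p-values of the ethanol comparisons within a fraction therefore measure the spread between dishes. The main fits across fractions have no term for the dish, although replicates 4 to 6 gave both an IP and an input library. Fits with each dish as a block are given beside them.

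Before a cell copies its DNA, the origin recognition complex, Cdc6 and Cdt1 load the MCM helicase ring onto origins. The helicase is then switched on with Cdc45, Mcm10 and the GINS complex, and polymerases, the sliding clamp Pcna and its RFC loader copy the strands while ribonucleotide reductase and thymidine kinase supply nucleotides. Many of these genes are transcribed at the G1 to S transition by E2F factors, so their RNA is commonly read as a sign of cycling cells. In cultures of dividing astrocytes, as in other bulk samples, fewer cycling cells and less of these RNAs per cycling cell cannot be told apart.

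The libraries held from 74239854 to 132810705 read pairs on genes (median 84119135). Astrocyte markers were higher in IP than in input for 8 of 10 genes and lower for 1, against 25.2% and 25.8% of all genes. Aldh1l1 had a log2 fold change of 1.05 ± 0.02 (SE). With ethanol, 4 of the 10 were called higher and 0 lower in the IP, against 11.9% and 9.48% of all genes. In the input 4 were higher and 3 lower, against 7.21% and 7.78% of all genes. The summed level of the 10 astrocyte markers was 1799 to 1880 CPM (read pair counts scaled to library size with TMM factors) in IP control and 1926 to 2000 CPM in IP ethanol, and 1167 to 1212 against 1222 to 1247 CPM in the input. Microglia markers were lower in IP for 8 of the 9 tested, and their summed level was 71.9 to 86.0 CPM in the 6 input libraries and 12.6 to 16.3 CPM in the 12 IP libraries. The microglia gene Itgam did not pass the filter on low counts. Oligodendrocyte lineage markers were higher in IP for 5 of 10 genes and lower for 4. Their summed level was 403.4 to 424.2 CPM in IP control and 261.6 to 283.3 CPM in input control. Neuron markers were higher in IP for 5 of 10 genes and lower for 2, with sums of 215.3 to 230.7 and 168.7 to 172.8 CPM. The summed level of endothelial and mural markers was 1628 to 1761 CPM in IP control and 1053 to 1249 CPM in IP ethanol libraries, and 1301 to 1371 and 900.8 to 968.8 CPM in the input. Nearly all of this was Acta2, smooth muscle actin, at 1589 ± 56.9 (SD, n = 6) and 1069 ± 69.3 CPM in IP control and IP ethanol, while Cldn5 did not pass the filter, Kcnj8 was at 0.0125 CPM in IP control, and 7 of the 9 markers tested were not called in the IP. Summed fibroblast markers overlapped between treatments, at 1761 to 1801 CPM in IP control and 1639 to 1878 CPM in IP ethanol. The part of these changes in the results below was not tested.

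The start sites of these genes were searched for short motifs. Many of the genes are known to be transcribed by E2F factors, so E2F motifs among them are not independent of their choice. Promoters in the RefSeq table for GRCm38.p6, each 250 bases before and 50 bases after a start, were matched by symbol for 42 of the 50 genes. An E2F motif, TTTCCCGC, TTTGGCGC, TTTCGCGC or TTTGCCGC on either strand, stood in 16 of the 42 (38.1%), against 2.26% of all 32851 promoters and 3.9% of the 14346 tested genes that had one. The CCAAT box stood in 25 of the 42 (59.5%), against 37.4% of all promoters and 41.7% of the tested genes. The motif TTTGAA was found in 6 (14.3%), against 17.9% of all promoters and 15.4% of the tested genes, and CACGTG in 7 (16.7%), against 7.15% and 10.3%. Matches are letters in a window and not shown binding, and neighbouring E2F matches can share bases.

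Windows of 5 genes are given here from 250 bases before to 30 bases after the start, on the strand of the gene, with each E2F match in capitals. Cdc6, Mcm5, Mcm6 and Clspn were among the genes lower with ethanol, and Gins3 has a match but was not called in any comparison. The single match of Cdc6 begins 138 bases before the start (position -138), the matches of Mcm5 begin at -153 and -149 on opposite strands and overlap, those of Mcm6 begin at -110, -106 and -47, that of Clspn lies 21 bases after the start, and that of Gins3 begins at -41.
Cdc6, chr11:98907901-98908180 (+): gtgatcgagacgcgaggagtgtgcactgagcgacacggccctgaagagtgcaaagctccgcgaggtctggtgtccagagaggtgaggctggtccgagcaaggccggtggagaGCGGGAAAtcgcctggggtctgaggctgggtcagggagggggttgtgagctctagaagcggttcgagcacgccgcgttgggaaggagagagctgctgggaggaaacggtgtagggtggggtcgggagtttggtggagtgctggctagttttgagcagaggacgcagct
Mcm5, chr8:75109259-75109538 (+): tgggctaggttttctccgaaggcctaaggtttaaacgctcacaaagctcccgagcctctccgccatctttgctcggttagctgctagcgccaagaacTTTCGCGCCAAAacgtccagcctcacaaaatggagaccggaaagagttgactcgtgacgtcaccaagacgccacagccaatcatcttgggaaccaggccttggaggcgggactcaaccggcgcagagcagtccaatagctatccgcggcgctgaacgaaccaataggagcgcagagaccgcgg
Mcm6, chr1:128359676-128359955 (-): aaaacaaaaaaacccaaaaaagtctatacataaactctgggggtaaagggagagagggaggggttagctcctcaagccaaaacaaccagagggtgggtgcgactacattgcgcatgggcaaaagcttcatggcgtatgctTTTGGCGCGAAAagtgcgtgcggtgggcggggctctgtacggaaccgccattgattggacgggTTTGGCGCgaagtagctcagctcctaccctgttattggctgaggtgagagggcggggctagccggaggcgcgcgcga
Clspn, chr4:126556730-126557009 (+): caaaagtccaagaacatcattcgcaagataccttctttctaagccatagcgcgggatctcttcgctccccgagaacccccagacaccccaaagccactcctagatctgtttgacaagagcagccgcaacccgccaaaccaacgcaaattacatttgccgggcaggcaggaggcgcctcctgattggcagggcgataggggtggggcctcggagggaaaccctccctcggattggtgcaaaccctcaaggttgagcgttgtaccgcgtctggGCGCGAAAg
Gins3, chr8:95633309-95633588 (+): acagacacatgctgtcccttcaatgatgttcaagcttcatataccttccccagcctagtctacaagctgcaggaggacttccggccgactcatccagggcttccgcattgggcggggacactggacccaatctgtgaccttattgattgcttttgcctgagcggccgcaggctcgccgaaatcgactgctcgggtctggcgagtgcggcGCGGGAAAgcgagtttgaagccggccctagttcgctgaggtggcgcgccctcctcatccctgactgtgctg

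Ethanol lowered the RNA of most of these genes in both fractions. In the IP, 35 of 50 were lower and 0 were higher at an adjusted p below 0.05 (edgeR's quasi-likelihood test with Benjamini-Hochberg adjustment over all genes tested), against a background of 9.48% of all genes called lower and 11.9% called higher. In the input, 30 of 50 were lower and 0 were higher, against 7.78% and 7.21% of all genes. Calls were more common among the 13453 genes whose mean was 1 CPM or more, as in 47 of the 50. Of these 13453 genes, 2154 were lower and 2798 higher in the IP, and 1829 and 1718 in the input. At an unadjusted p below 0.05 the only member on the higher side was E2f1, in the IP and in the input, and DESeq2 also called 0 of the 50 higher. The median log2 fold change of the 50 genes was -0.23 in the IP (range -0.63 to 0.08) and -0.23 in the input (range -0.79 to 0.08), while the median of the 13453 genes whose mean was 1 CPM or more was 0.02 and 0.00456. The changes were modest, and against a fold change of at least 1.2 in place of 0, 3 genes remained lower in the IP (Cdc6, Mcm3 and Mcm5) and 4 in the input (the same genes and Tk1), where 0.233% and 0.192% of all genes were called lower.

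**Figure D1:**
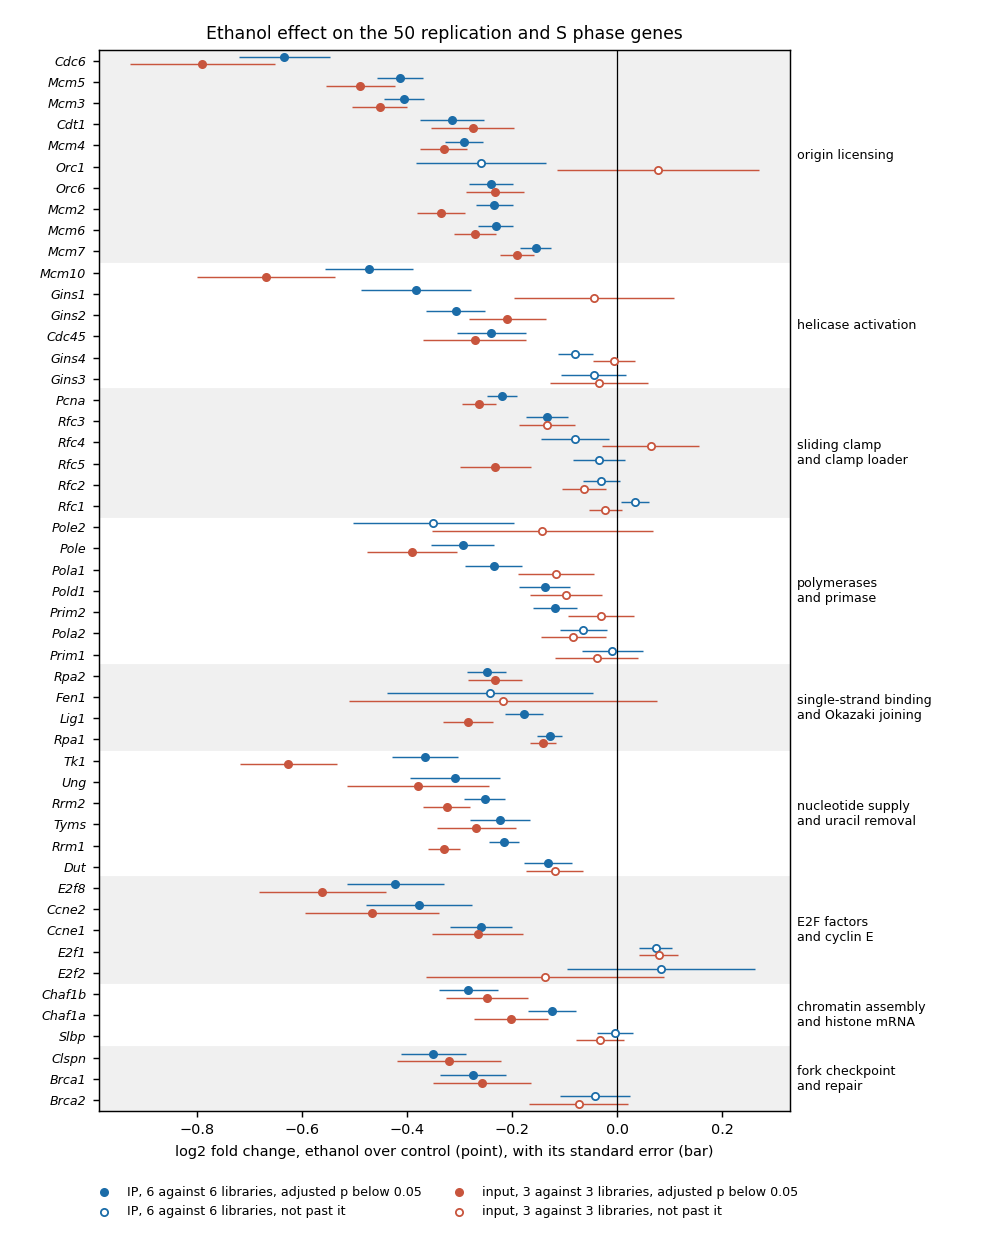
Log2 fold change of ethanol over control (points) with its standard error (bars) for each of the 50 genes, grouped by role, in the IP (6 against 6 libraries) and the input (3 against 3 libraries). Filled points passed an adjusted p of 0.05, and 47 of the 50 genes lie left of 0 in each fraction.

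The summed level of the 50 genes was 928.1 to 948 CPM in the 6 IP control libraries and 828.6 to 851.6 CPM in the 6 IP ethanol libraries, and 898.6 to 913.6 against 787.9 to 809.6 CPM in the input. Every ethanol library was below every control library of its fraction on that sum. Taken gene by gene, 22 of 50 genes had all 6 IP ethanol libraries below all 6 IP control libraries and 0 had them all above, where 4.87% and 5.09% of all genes did so. In the input, where 3 libraries face 3, 33 genes were wholly below and 1, E2f1, wholly above, against 13.1% and 14% of all genes.

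**Figure D2:**
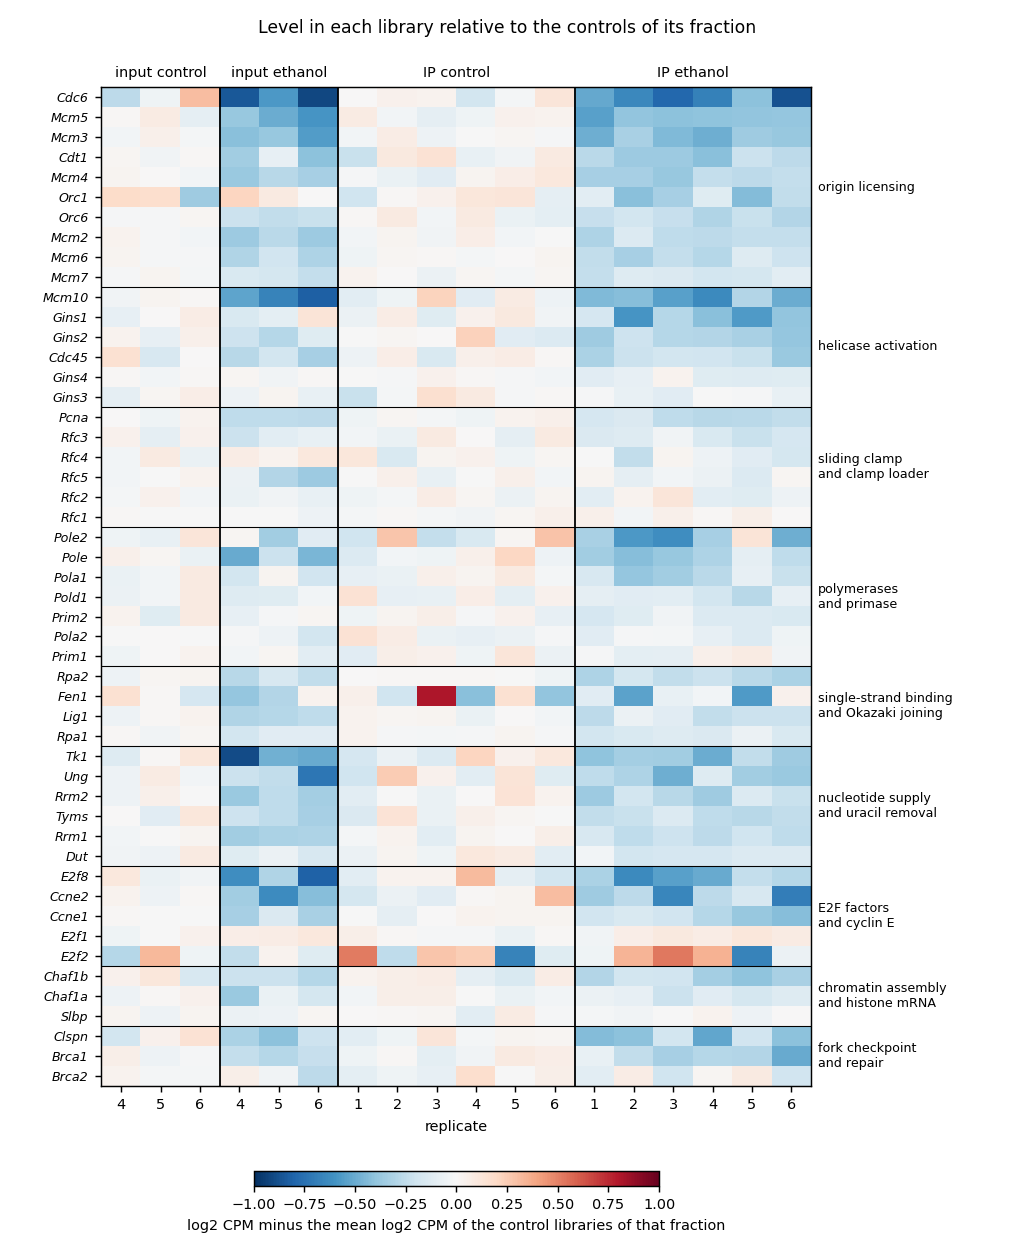
Log2 CPM of the 50 genes (rows, grouped by role) in each of the 18 libraries (columns, by group and replicate), minus the mean of the control libraries of the same fraction. Blue is lower and red is higher, and blue fills most rows of the 3 input ethanol and 6 IP ethanol libraries, with E2f1, E2f2, Rfc1 and Slbp among the rows that do not follow.

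Replicates 1 to 3 of the IP come from dishes with no input library, so they share neither a dish nor a library with the input comparison. Tested alone, they called 23 of 50 genes lower, against 5.6% of all genes. Of the 30 genes lower in the input, all 30 had a log2 fold change below 0 in these separate dishes and 22 passed the test there, with a median of -0.25 and a range from -0.67 to -0.02. The same count over all genes lower in the input was not made. Whether the 50 genes repeat more often than other genes was therefore not tested.

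Origin licensing genes were lower with ethanol almost throughout, with 9 of 10 called in the IP and 9 of 10 in the input. Cdc6, the loader that brings the helicase to the origin complex (ENSMUSG00000017499), had the largest change of all 50 genes in both fractions on the deposited counts (on own-strand counts Tk1 had a larger one, given with its values). Its levels in IP control were 2.68 CPM at the lowest, 3.10 at the median and 3.32 at the highest library, and in IP ethanol 1.67, 1.93 and 2.30 CPM. The groups did not overlap, and the log2 fold change was -0.63 ± 0.09 (SE, edgeR adjusted p = 4.82e-08). In the input it was 2.28, 2.66 and 3.39 CPM in control and 1.46, 1.52 and 1.84 CPM in ethanol, again without overlap (-0.79 ± 0.14, adjusted p = 3.84e-07).

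The 6 subunits of the MCM helicase ring, Mcm2 to Mcm7, were all lower in both fractions, with no overlap between control and ethanol libraries for any of them. Mcm5 had 13.4, 14.4 and 15.2 CPM (lowest, median, highest) in IP control and 9.85, 10.9 and 10.9 CPM in IP ethanol, a log2 fold change of -0.41 ± 0.04 (adjusted p = 3.97e-11). In the input it fell from 11.7, 12.6 and 13.2 CPM to 8.32, 8.88 and 9.65 CPM (-0.49 ± 0.07, adjusted p = 8.1e-12). Mcm3 had 21.6, 22.2 and 23.6 CPM in IP control and 16.0, 16.8 and 17.9 CPM in IP ethanol (-0.41 ± 0.04, adjusted p = 7.09e-13), and 19.7, 19.8 and 20.7 against 13.7, 15.0 and 15.5 CPM in the input (-0.45 ± 0.05, adjusted p = 1.88e-15). Mcm2 had 26.6, 27.1 and 28.6 CPM in IP control and 22.1, 23.0 and 24.9 CPM in IP ethanol (-0.23 ± 0.03, adjusted p = 3.41e-07), and its input levels were 25.0, 25.4 and 26.2 CPM against 19.8, 19.9 and 21.2 CPM (-0.34 ± 0.05, adjusted p = 3.69e-11). The change over the subunits ranged from -0.16 ± 0.03 for Mcm7 through -0.23 for Mcm6 and -0.29 for Mcm4 to -0.41 for Mcm5 in the IP, and in the input from -0.19 for Mcm7 to -0.49 for Mcm5.

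The other licensing genes were Cdt1, which delivers the helicase with Cdc6, at -0.31 ± 0.06 in the IP and -0.27 ± 0.08 in the input, and Orc6, a subunit of the origin recognition complex, at -0.24 ± 0.04 and -0.23 ± 0.06. Both passed the test in each fraction. Orc1, the ATPase subunit of that complex, was the exception, with -0.26 ± 0.12 in the IP (adjusted p = 0.137) and 0.08 ± 0.19 in the input (adjusted p = 0.878). Orc1 was scarce at 1.15 ± 0.10 CPM (SD, n = 6) in IP control. Counted on its own strand alone, its IP change was -0.50 ± 0.13 (adjusted p = 0.00203), from 1.16 ± 0.16 to 0.81 ± 0.07 CPM.

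Of the 6 genes that switch the helicase on, 4 were lower in the IP and 3 in the input. Mcm10, which completes helicase activation, had 2.90, 3.05 and 3.67 CPM in IP control and 2.02, 2.27 and 2.56 CPM in IP ethanol (-0.47 ± 0.08, adjusted p = 1.1e-05). In the input its levels were 2.88, 2.96 and 2.99 CPM in control and 1.67, 1.85 and 2.04 CPM in ethanol (-0.67 ± 0.13, adjusted p = 1e-05). The groups were apart in both fractions. Gins1, a GINS subunit, had 1.63, 1.77 and 1.89 CPM in IP control and 1.17, 1.34 and 1.58 CPM in IP ethanol, without overlap (-0.38 ± 0.10, adjusted p = 0.00424). In the input it had 1.67, 1.77 and 1.86 CPM in control and 1.59, 1.64 and 1.93 CPM in ethanol, which overlap (-0.04 ± 0.15, adjusted p = 0.915). The difference between these 2 effects was -0.35 ± 0.18 and did not pass the test (adjusted p = 0.83). Gins2 and Cdc45 were lower in both fractions, at -0.31 ± 0.06 and -0.24 ± 0.07 in the IP. Gins3 (-0.04 ± 0.06) and Gins4 (-0.08 ± 0.03, adjusted p = 0.0768) were not called in the IP, nor in the input. Counted on its own strand alone, Gins4 just passed the test in the IP (-0.09 ± 0.03, adjusted p = 0.0488).

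Of the sliding clamp and its loader, 2 of 6 genes were lower in each fraction. Pcna, the ring that holds polymerases on DNA, had 58.5, 60.3 and 62.6 CPM in IP control and 49.6, 50.8 and 54.5 CPM in IP ethanol, without overlap (-0.22 ± 0.03, adjusted p = 1.78e-08). In the input it had 56.0, 58.0 and 59.2 CPM in control and 48.0, 48.3 and 48.4 CPM in ethanol (-0.26 ± 0.03, adjusted p = 1e-13). Of the 5 RFC subunits that load it, 1 was called lower in each fraction, Rfc3 in the IP (-0.13 ± 0.04) and Rfc5 in the input (-0.23 ± 0.07). Rfc1, the large subunit, had 62.4 to 66.3 CPM in IP control and 62.8 to 66.7 CPM in IP ethanol (0.03 ± 0.03, adjusted p = 0.439), and Rfc2 was at -0.03 ± 0.04.

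For polymerase and primase genes the median change (log2) was -0.14 in the IP, where 4 of 7 were lower, and -0.10 in the input, where 1 of 7 was lower. For the 10 licensing genes the medians were -0.28 and -0.30. Pole, the catalytic subunit of the leading strand polymerase, was the gene lower in both, at -0.29 ± 0.06 in the IP and -0.39 ± 0.09 in the input. Pola1, the catalytic subunit of polymerase alpha, was lower in the IP (-0.24 ± 0.05), as were Pold1 (-0.14 ± 0.05) and the primase subunit Prim2 (-0.12 ± 0.04). Prim1, the catalytic primase subunit, had 5.59 to 6.59 CPM in IP control and 5.65 to 6.41 CPM in IP ethanol (-0.01 ± 0.06), and Pola2 was at -0.06 ± 0.04. Pole2 was scarce, at 0.86 ± 0.14 CPM (SD, n = 6) in IP control, and its -0.35 ± 0.15 in the IP did not pass the test (adjusted p = 0.0994). Without IP ethanol replicate 5 the same value was -0.46 (adjusted p = 0.028).

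Among the genes that coat single strands and join Okazaki fragments, 3 of 4 were lower in each fraction. They were the replication protein A subunits Rpa1 (-0.13 ± 0.02 in the IP, -0.14 ± 0.02 in the input) and Rpa2 (-0.25 ± 0.04, -0.23 ± 0.05), and the ligase Lig1 (-0.18 ± 0.04, -0.28 ± 0.05). The flap nuclease Fen1 was not called, but the deposited counts hold little of it. Genes on the opposite strand overlap its exons, and 731 read pairs were assigned to Fen1 over the 18 libraries without regard to strand against 24726 on its own strand. On the own-strand counts Fen1 had 16.1, 16.6 and 18.1 CPM in IP control and 14.6, 15.0 and 16.2 CPM in IP ethanol, which overlap slightly (-0.15 ± 0.04, adjusted p = 0.00434). The own-strand input values were 14.4, 14.4 and 15.3 CPM in control and 12.8, 12.9 and 13.4 CPM in ethanol, which do not overlap (-0.17 ± 0.06, adjusted p = 0.0185).

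All 6 genes of nucleotide supply and uracil removal were lower in the IP, and 5 of 6 in the input. Tk1, the thymidine salvage kinase, had 5.86, 6.55 and 7.63 CPM in IP control and 4.66, 5.16 and 5.56 CPM in IP ethanol (-0.37 ± 0.06, adjusted p = 5.73e-06). In the input it had 5.66, 6.25 and 6.68 CPM in control and 3.32, 4.35 and 4.42 CPM in ethanol (-0.63 ± 0.09, adjusted p = 9.03e-10). Tk1 shares exons with a gene on the other strand, and its own-strand count was 65.9% of its count taken without regard to strand. Own-strand levels were 3.83, 4.22 and 5.04 CPM in IP control and 2.34, 2.74 and 3.13 CPM in IP ethanol, and the change was then larger, -0.68 ± 0.08 in the IP (adjusted p = 8.65e-10) and -0.86 ± 0.11 in the input (adjusted p = 9.9e-14). The ribonucleotide reductase subunits Rrm1 and Rrm2 were at -0.22 ± 0.03 and -0.25 ± 0.04 in the IP and at -0.33 ± 0.03 and -0.32 ± 0.04 in the input. Thymidylate synthase, Tyms, was at -0.22 ± 0.06 and -0.27 ± 0.08, and the uracil glycosylase Ung at -0.31 ± 0.09 and -0.38 ± 0.14. Dut, which keeps dUTP out of DNA, had 11.5, 12.3 and 13.4 CPM in IP control and 10.9, 11.2 and 12.2 CPM in IP ethanol, which overlap (-0.13 ± 0.05, adjusted p = 0.0282), and its input change of -0.12 ± 0.05 was not called (adjusted p = 0.141).

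Of the transcription factors and cyclins that time S phase entry, 3 of 5 were lower in each fraction. E2f8, an E2F family repressor, had 2.32, 2.58 and 3.28 CPM in IP control and 1.69, 1.99 and 2.23 CPM in IP ethanol, without overlap (-0.42 ± 0.09, adjusted p = 0.000323), and 3.22, 3.30 and 3.63 against 1.93, 2.20 and 2.74 CPM in the input (-0.56 ± 0.12, adjusted p = 8.49e-05). Ccne2, an activating cyclin of the kinase Cdk2, had 1.94, 2.16 and 2.71 CPM in IP control and 1.36, 1.77 and 1.96 CPM in IP ethanol, where the highest ethanol library passed the lowest control library (-0.38 ± 0.10, adjusted p = 0.00341). In the input Ccne2 was apart, at 2.83, 2.96 and 3.01 CPM in control and 1.90, 2.19 and 2.30 CPM in ethanol (-0.47 ± 0.13, adjusted p = 0.00306). The other cyclin E gene, Ccne1, was at -0.26 ± 0.06 in the IP and -0.27 ± 0.09 in the input. E2f1, an activator E2F of the G1 to S transition, was not lower. It had 36.3, 38.1 and 39.6 CPM in IP control and 37.2, 40.2 and 41.1 CPM in IP ethanol, where replicate 1 lay within the control range and the other 5 libraries lay above it (0.07 ± 0.03, adjusted p = 0.0862), and 35.3, 36.4 and 37.5 against 38.1, 38.3 and 39.2 CPM in the input, which do not overlap (0.08 ± 0.04, adjusted p = 0.157). Without IP ethanol replicate 1, the library with the lowest E2f1 among the ethanol dishes, the IP value was 0.09 and passed the test (adjusted p = 0.023). E2f2 was scarce, at 0.67 ± 0.19 and 0.70 ± 0.19 CPM (SD, n = 6) in IP control and IP ethanol.

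**Figure D3:**
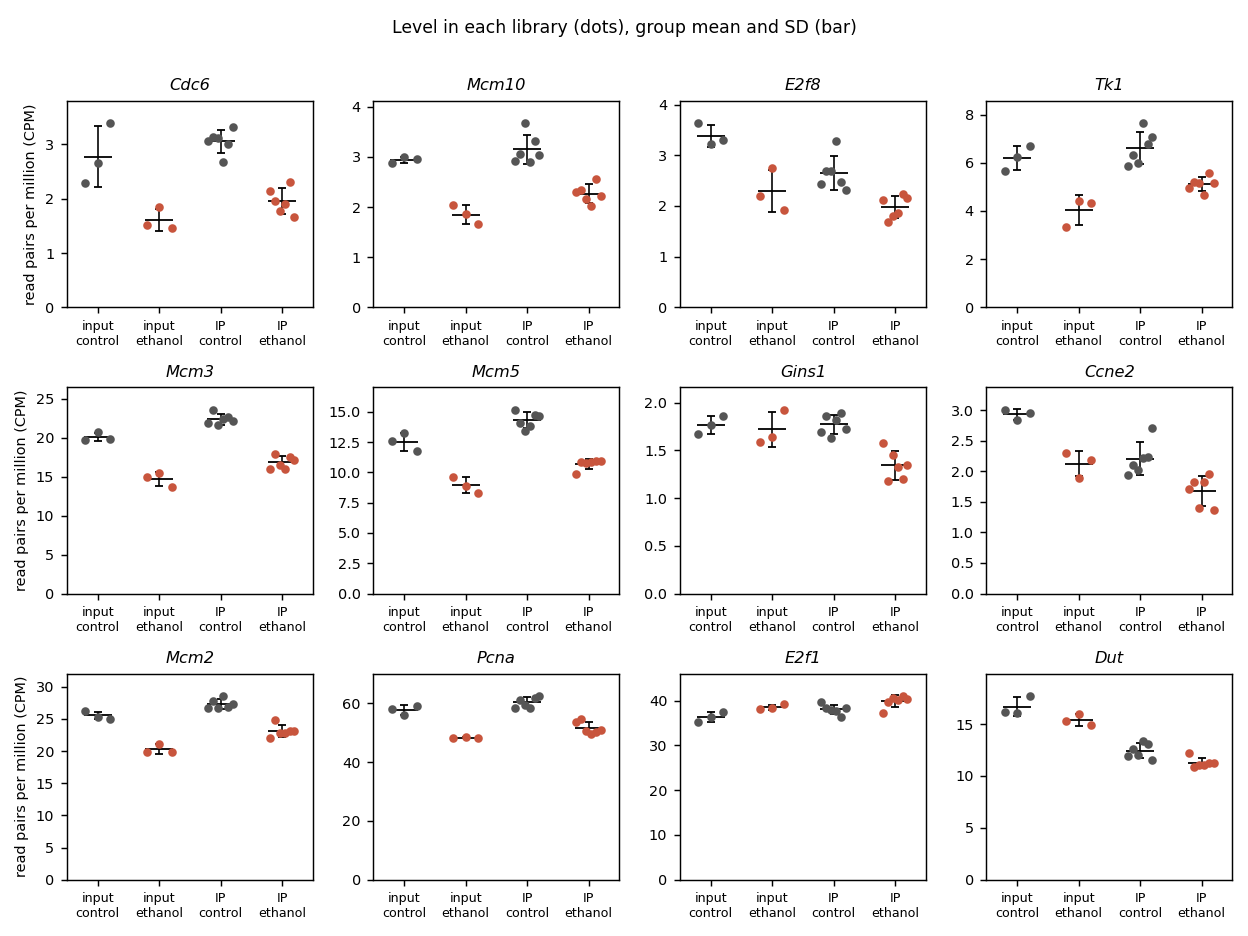
CPM in each library (dots) with the group mean and SD (bar) for 12 genes, in input control, input ethanol, IP control and IP ethanol. Cdc6 falls from a mean of 3.06 to 1.96 CPM in the IP, and 1 ethanol dot of E2f1 lies among the control dots in the IP while the other 5 lie above them. Gins1 was called lower in the IP and not in the input, but the difference of its 2 effects did not pass the test (edgeR adjusted p = 0.83).

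Of the chromatin assembly genes, Chaf1b was lower in both fractions (-0.28 ± 0.06 in the IP, -0.25 ± 0.08 in the input), and so was Chaf1a (-0.12 ± 0.05, -0.20 ± 0.07). Both encode subunits of the factor that places histones on new DNA. Slbp, which binds histone mRNA, had 23.3 to 26.5 CPM in IP control and 24.2 to 25.7 CPM in IP ethanol, and was not called (adjusted p = 0.958). Of the fork checkpoint and repair genes, Clspn, which couples the fork to its checkpoint kinase, was at -0.35 ± 0.06 and -0.32 ± 0.10 and Brca1 at -0.28 ± 0.06 and -0.26 ± 0.09, all 4 past the test, while Brca2 was at -0.04 ± 0.07 and -0.07 ± 0.09.

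Over all roles, 29 genes were lower in both fractions, 6 were called lower in the IP alone, 1 in the input alone, and 14 in neither. Of the 16 genes with the motif, 11 were lower in the IP (median -0.24) and 5 were not (median -0.04), and of the 26 without it, 18 were lower (median -0.24) and 8 were not (median -0.02).

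In the IP, 4 of the 35 calls were lost when 1 library was left out. Pold1 was lost without IP control replicate 1, 4 or 6 or IP ethanol replicate 4 or 5 (log2 fold change -0.14 to -0.11, adjusted p from 0.051 to 0.119), and Chaf1a without IP control replicate 2 or 3 or IP ethanol replicate 3, 4 or 5 (-0.13 to -0.11, adjusted p from 0.0636 to 0.0849). Prim2 was lost without IP control replicate 3 or 5 or IP ethanol replicate 1 or 4 (-0.12 to -0.11, adjusted p from 0.0596 to 0.065), and Dut without IP control replicate 4 or 5 or IP ethanol replicate 4 (-0.12, adjusted p from 0.0661 to 0.0845). In the input, with 3 libraries a group, 11 of 30 calls were lost in this way and all kept their direction. Brca1 was lost whichever library was left out (adjusted p from 0.0577 to 0.157). The calls of Ung (adjusted p without it 0.0549), Cdc45 (0.323), Gins2 (0.113), Chaf1b (0.0658) and Ccne1 (0.0518) needed input control replicate 4. Those of Ung (adjusted p without it 0.163), Chaf1a (0.094), Chaf1b (0.179) and Clspn (0.0608) needed input control replicate 5. Those of Ung (0.0703), Cdc45 (0.0918), Gins2 (0.147), Chaf1a (0.127), Clspn (0.159) and Tyms (0.102) needed input control replicate 6. On the ethanol side, Cdt1 (adjusted p without it 0.0538), Cdc45 (0.101), Gins2 (0.0746), Chaf1a (0.375) and Ccne1 (0.0942) needed replicate 4. Gins2 (0.178), Clspn (0.0907) and Rfc5 (0.0563) needed ethanol replicate 5. Ethanol replicate 6 was needed by Cdt1 (0.0859), Cdc45 (0.137), Ung (0.345), Ccne1 (0.0746), Chaf1b (0.0542) and Rfc5 (0.105). The widest moves were in Ung, from -0.38 to -0.24 without input ethanol replicate 6, and in Chaf1a, from -0.20 to -0.12 without input ethanol replicate 4. Rfc3, not called in the input, passed there without input control replicate 5 (adjusted p = 0.0343) or input ethanol replicate 6 (adjusted p = 0.0447).

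Other genes of the same processes moved in part. Of 64 further replication and S phase genes, 26 were lower and 0 higher in the IP (median -0.09), against 9.48% and 11.9% of all genes. In the input 23 were lower and 1 higher (median -0.12), against 7.78% and 7.21% of all genes. At least part of this list, such as Msh6, Top1 and the pocket protein Rbl2, works outside S phase too. Among the largest changes of those called in the IP and above 1 CPM on average were Esco2, which acetylates cohesin during S phase (1.43 ± 0.19 CPM in IP control, -0.49 ± 0.12, adjusted p = 0.00169), and Ccna2, cyclin A2 (5.44 ± 0.40 to 4.05 ± 0.41 CPM, -0.42 ± 0.07, adjusted p = 2e-06), each SD over 6 libraries. In 2 further E2F genes, singled out after their values were seen, the repressor E2f7 was at -0.42 ± 0.12 in the IP and the activator E2f3 at -0.01 ± 0.04.

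Genes of mitosis, which act after S phase, were lower as well. Of 26 mitosis genes, 25 were lower in the IP and 23 in the input. Over all genes 9.48% and 7.78% were lower, and of the 13453 genes averaging 1 CPM or more, 2154 and 1829. Of the 26 mitosis genes 0 were higher, and all had a log2 fold change below 0 in each fraction, with medians of -0.31 and -0.43. Their summed level was 207.7 to 226.2 CPM in IP control and 169.2 to 181.3 CPM in IP ethanol, and 214.6 to 217.2 against 158.4 to 169.7 CPM in the input. No difference between this list and the replication genes was tested.

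**Figure D4:**
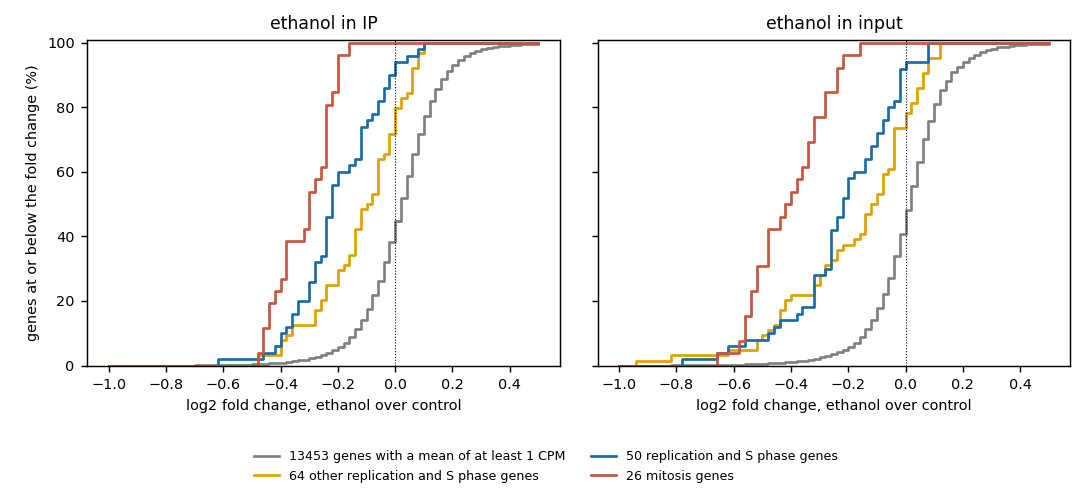
Share of genes (%) at or below each log2 fold change of ethanol over control, in the IP and in the input, for the 50 replication and S phase genes, 64 other genes of these processes, 26 mitosis genes and the 13453 genes whose mean was 1 CPM or more. The curves of the 50 genes and of the mitosis genes lie left of the curve of all genes, with medians of -0.23 and -0.31 in the IP.

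Whether ethanol acted differently on ribosome-bound and total RNA was tested as the difference of the 2 effects over the 18 libraries. None of the 50 genes passed, in either direction, with edgeR or with DESeq2. Of all genes tested, edgeR called 0% lower and 0% higher, and DESeq2 called 0 genes lower and 2 higher. At an unadjusted p below 0.05 there were 0 of the 50 on the lower side and 3 on the higher side, Tk1 (0.25 ± 0.12, adjusted p = 0.83), Rfc5 (0.19 ± 0.09, adjusted p = 0.819) and Rrm1 (0.10 ± 0.05, adjusted p = 0.818), each with a smaller decrease in the IP than in the input. Over all genes, 1459 had an unadjusted p below 0.05. The median difference over the 50 genes was 0.02, with values from -0.35 for Gins1 to 0.25 for Tk1. The standard errors for scarce genes were wide (0.16 for Cdc6, 0.22 for Orc1), so differences near these errors were not detectable with 6 input libraries. In a paired fit that kept each dish as a block, 0 of the 50 genes were called, on all counts and on own-strand counts, while 8 of all genes tested were lower and 94 higher (8 and 96 on own-strand counts). With GC content and length trends removed in the same fit, 33 of all genes were lower and 20 higher.

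Apart from ethanol, the 50 genes had no common direction between IP and input. Between the fractions, genes whose mean was 1 CPM or more, as in 47 of the 50, were called more often than all genes. Of 13453 such genes, 5713 were higher and 4545 lower in IP, larger shares than among the 50 in both directions. Over 12 IP and 6 input libraries, 19 of the 50 were higher and 12 lower in IP, against 25.2% and 25.8% of all genes. This split depends on scaling, since with total counts in place of TMM factors 12 were higher and 16 lower, against 20.8% and 30.2% of all genes, so that all genes shifted with the scaling as well. All IP libraries were above all input libraries for 3 genes and below them for 2, against 13.1% and 11.9% of all genes. The median log2 fold change was 0.06, and 0.57 for the 10 astrocyte markers.

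Genes of one complex could lie on opposite sides. Clspn was the most IP-enriched of the 50, at 5.79, 6.22 and 6.78 CPM in IP control and 4.16, 4.86 and 5.22 CPM in input control (0.37 ± 0.06, adjusted p = 5.43e-08). Of the primase subunits, Prim2 was higher in IP, with 14.1 to 15.4 CPM in IP control and 10.8 to 12.5 CPM in input control (0.28 ± 0.04, adjusted p = 5.6e-10), and Prim1 was lower (-0.26 ± 0.05, adjusted p = 3.14e-06). Both had all IP libraries on one side of all input libraries. Rpa1 (0.27 ± 0.02) and Rfc1 (0.20 ± 0.02) were the other genes wholly higher in IP. Among the helicase subunits, Mcm2, Mcm3, Mcm4 and Mcm5 were higher in IP (0.14 to 0.22), while Mcm6 (0.02 ± 0.03) and Mcm7 (-0.02 ± 0.02) did not pass the test. With total counts in place of TMM factors, Mcm7 was called lower at -0.07 (adjusted p = 0.0107).

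The genes lowest in IP relative to input were Dut, Ccne2, Tyms and E2f8. Dut had 11.5 to 13.4 CPM in IP control and 16.1, 16.2 and 17.7 CPM in input control, and every one of the 12 IP libraries was below every input library (-0.43 ± 0.04, adjusted p = 2.45e-17). Ccne2 was at -0.38 ± 0.08 (adjusted p = 4.74e-05) and -0.53 ± 0.10 on own-strand counts (adjusted p = 3e-06). Tyms was at -0.34 ± 0.05 (adjusted p = 2.38e-09), E2f8 at -0.29 ± 0.08 (adjusted p = 0.00117) and Rrm1 at -0.25 ± 0.02, while the partner subunit Rrm2 was at -0.02 ± 0.03. Tk1 was called higher in IP on the deposited counts (0.21 ± 0.06, adjusted p = 0.00301) but was at -0.07 ± 0.07 on own-strand counts (adjusted p = 0.436), so its direction depends on the counting.

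**Figure D5:**
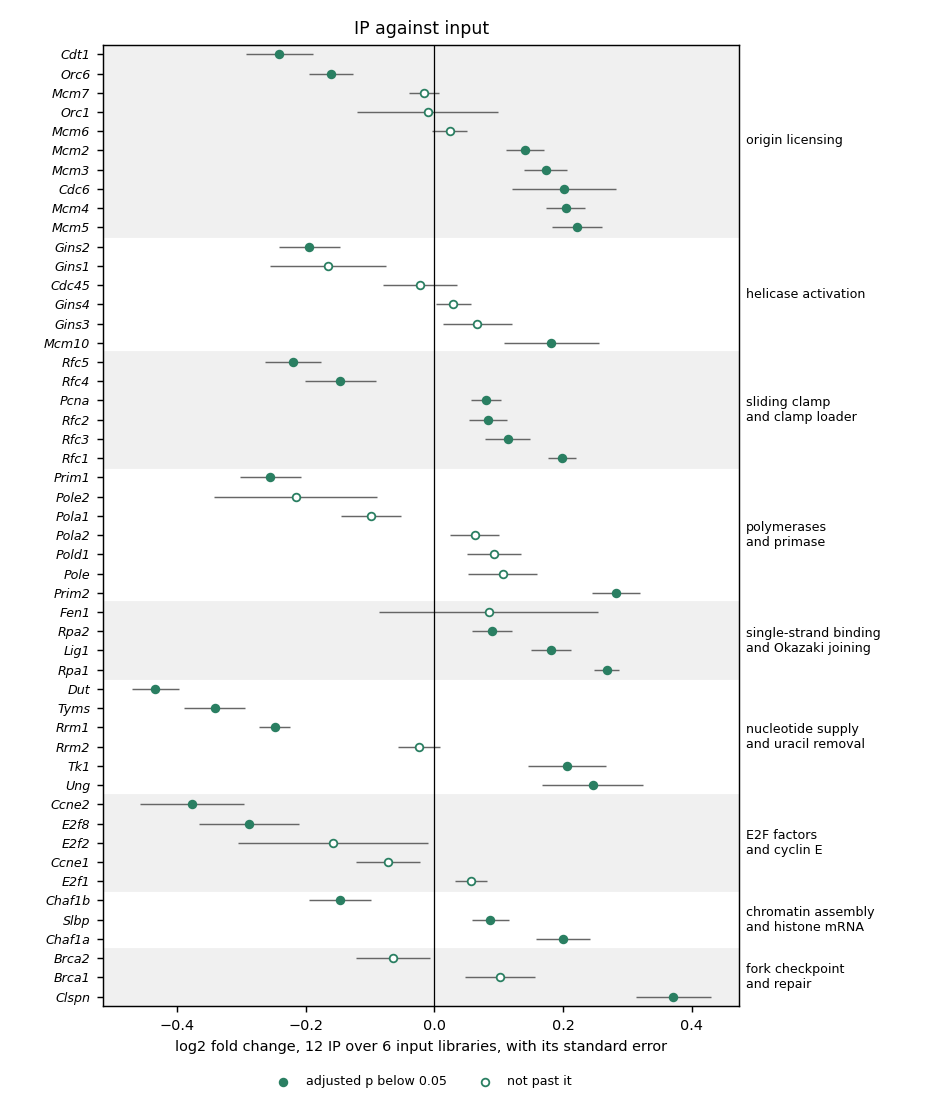
Log2 fold change of IP over input (points) with its standard error (bars) for the 50 genes, grouped by role, over 12 IP and 6 input libraries with a term for treatment. Filled points passed an adjusted p of 0.05, from Dut at -0.43 to Clspn at 0.37, and members of the same role stand on both sides of 0.

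Of the 31 IP against input calls, 4 were lost without some 1 library. Cdc6 (0.20 ± 0.08, adjusted p = 0.0325) was lost without input control replicate 4 or 5, input ethanol replicate 4 or 6, IP control replicate 6 or IP ethanol replicate 1 or 5 (adjusted p up to 0.147), Mcm10 (0.18 ± 0.07) without input ethanol replicate 5 or 6, IP control replicate 3 or IP ethanol replicate 5 (adjusted p up to 0.119), Rfc4 (-0.15 ± 0.06) without input control replicate 5 or input ethanol replicate 6 (adjusted p up to 0.0659), and Rpa2 (0.09 ± 0.03) without input ethanol replicate 4 (adjusted p = 0.052). A paired fit used the 12 libraries from replicates 4 to 6 of each treatment, with each dish as a block. In it, 16 genes were higher and 12 lower, against 23.8% of all genes, scarce ones included, in each direction. Cdc6 (0.19, adjusted p = 0.0686), Mcm10 (0.16, adjusted p = 0.122), Rpa2 (0.08, adjusted p = 0.0781) and Rfc2 (0.05, adjusted p = 0.198) were then not called, and Pole was (0.18, adjusted p = 0.0048).

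Levels between genes were compared as CPM per kilobase of annotated exons, over all 18 libraries. They spanned from 0.146 for E2f2 to 25.3 for Rpa1, with Pcna at 22.9, Gins4 at 22.8, E2f1 at 12.2 and Mcm7 at 11.5 near the top and Pole2 at 0.28, Orc1 at 0.303 and Mcm10 at 0.339 near the bottom. Fen1 is left out of this order because of its overlap. Other genes with overlaps were kept, such as Tk1 and Chaf1a, whose own-strand counts were 65.9% and 136.3% of those without strand. The subunits of the helicase ring ran from 2.99 for Mcm5 and 3.52 for Mcm2 through 5.03 for Mcm3, 6.84 for Mcm6 and 7.41 for Mcm4 to 11.5 for Mcm7 on this scale. Their order depends on the divisor, which takes the exons of all annotated transcripts together. Mcm2 and Mcm4 had 24.5 and 26.6 CPM, with 6956 and 3589 bases of annotated exons.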

How the data were processed

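Per the labels and the study's methods, the authors made stranded total RNA libraries after ribosomal RNA depletion, used Trimmomatic for trimming and STAR for alignment to GRCm38, and deposited the raw counts of uniquely mapped read pairs per gene. Versions are not given in the sources used here. These deposited counts, read without regard to strand, were used, with counts of the annotated strand as an alternative. A gene needed 10 or more read pairs in all 18 libraries together and was then tested in edgeR 4.0.16 (TMM, glmQLFit, glmQLFTest, in R 4.3.3). The SE is the absolute log2 fold change over the square root of F, and Benjamini-Hochberg adjustment ran over all 24495 genes, with a threshold of 0.05. The comparisons were ethanol in 12 IP libraries, ethanol in 6 input libraries, IP vs. input over 18 libraries with a treatment term, and the interaction. Alternatives included DESeq2 1.42.0, other scalings and filters, each library left out, and a dish block. Input and IP libraries of a dish are paired by their dish number in the labels (correlation of deviations from 0.0191 to 0.153), whereas the labels link a control to an ethanol dish by nothing beyond the number. GENCODE M21 gave exon lengths and overlaps. The genes, lists and tests were chosen with earlier results of these data known. Genes with values by library are, per comparison, the 6 with the largest absolute log2 fold change among those called and averaging 1 CPM or more, and always Mcm2, Pcna and E2f1, and 3 genes of the further list by the same rule in the IP, of which 1 is not reported here. The script was tested on simulated data. Intervals and p-values rest on 6 or 3 dishes a group.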

Additional observations from a re-analysis of the deposited data

Results flagged for a closer look

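In 8 of 100 groups of 6 IP libraries, 1 library stood apart from the other 5 by Dixon's criterion, which chance meets in about 1 of 20 groups. In IP ethanol, replicate 1 was apart for Mcm5 (9.85 CPM, the others 10.7 to 10.9), Dut (12.2 CPM, the others 10.9 to 11.3) and E2f1 (37.2 CPM, the others 39.8 to 41.1). Gins4 was apart in IP ethanol replicate 3 (32.7 CPM, the others 29.3 to 30.2) and Pole2 in IP ethanol replicate 5 (0.934 CPM, the others 0.553 to 0.681). In IP control, Ccne1 was apart in replicate 2 (5.78 CPM, the others 6.12 to 6.29), Fen1 in replicate 3 (0.869 CPM, the others 0.371 to 0.551) and Rpa2 in replicate 6 (20.5 CPM, the others 21.1 to 21.3). Leaving the library out ended no ethanol call for Mcm5, Dut, Rpa2 or Ccne1. It added a call for E2f1, which was then higher with ethanol (0.09, adjusted p = 0.023), for Gins4 (-0.11, adjusted p = 0.00753) and for Pole2 (-0.46, adjusted p = 0.028). These libraries were picked as the extreme values of their groups, so the added calls are no independent test of a change. The Fen1 value rests on the few read pairs left to it without strand.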

How the results depend on the processing

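The ethanol calls of the 50 genes kept their direction under every alternative run. With DESeq2, its size factors, total counts, no count filter, filterByExpr, own-strand counts or GC content and length trends removed, 33 to 38 genes were lower in the IP and 25 to 31 in the input. Tested against a fold change of 1.2, 3 were lower in the IP and 4 in the input, and in IP vs. input 1 was lower and 1 higher, since this test asks for larger changes. IP replicates 1 to 3 alone gave 23 lower and a median log2 fold change of -0.183, and replicates 4 to 6 gave 32 and -0.252, with fewer samples. In IP vs. input, total counts gave 12 higher and a median of 0.00897, the libraries of dishes with both fractions a median of 0.0301, and own-strand counts turned Tk1 to -0.0707 (reads of an overlapping gene left out). With each dish as a block the paired fit gave a median of 0.0302, 16 higher and 12 lower, and with control and ethanol replicate numbers as a block 35 and 30 genes were lower as before. The labels do not say that these numbers mark anything shared, and the deviations of equal numbers correlated at -0.104 to 0.221. Leaving out each library gave 31 to 35 lower and 0 to 1 higher in the IP (E2f1), 23 to 26 lower in the input, medians from 0.037 to 0.0654 in IP vs. input and from 0.000582 to 0.0313 for the difference of the effects. The fit with dish block on own-strand counts was added after seeing the data and called 0 of the 50. Changes under about 0.1 on the log2 scale, and those in genes near 1 CPM, are limited by depth and by 3 input dishes a group.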
